A study of Homo sapiens with 6 samples.

Results

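The genes described here encode 9 enzymes of serine synthesis and folate-bound one-carbon metabolism: PHGDH, PSAT1, PSPH, SHMT1, SHMT2, MTHFD1, MTHFD1L, MTHFD2 and ALDH1L2. They were chosen by name from the deposited table of raw counts, with the condition of at least 10 counts in some library, which all 9 of 9 met among 20333 gene intervals. All 9 also passed the filter on low counts, which left 19902 intervals for testing. The assay was PRO-seq (precision nuclear run-on sequencing), in which engaged RNA polymerases extend their transcripts in permeabilised cells, so that a count reports polymerase activity over a gene rather than how much mature RNA it has made. T47D, the line used, is an established luminal breast cancer line labelled estrogen receptor positive and HER2 negative, here grown with growth factors present. Cells received DMSO, the solvent, 500 nM GDC0068, which inhibits the catalytic activity of the AKT kinases, or 100 nM INY-05-040, a degrader of the AKT proteins that is written Degrader below, each for 5 h. The 2 doses differ, and per the series description were set to suppress downstream signalling to a comparable degree. Each arm had 2 libraries, 1 from each replicate number, and the series describes 2 independent experiments.

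Serine is made from a glycolytic intermediate in a short chain of reactions. PHGDH oxidises the intermediate, PSAT1 transfers an amino group from glutamate to it, and PSPH removes the phosphate. Serine hydroxymethyltransferases then split serine into glycine and a one-carbon unit carried by folate, SHMT1 in the cytosol and SHMT2 in mitochondria. In mitochondria MTHFD2 oxidises the unit and MTHFD1L releases it as formate or ALDH1L2 burns it to carbon dioxide, while in the cytosol MTHFD1 takes formate up again for the synthesis of purines and thymidylate. In proliferating cells, several of these genes are known targets of the transcription factor ATF4, whose protein output depends on the mTOR pathway downstream of AKT.

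Total counts ran from 25371819 to 32192576 per library. All 12 of 12 luminal markers listed (among them ESR1, GATA3, FOXA1 and KRT8) were transcribed, at 4.08 to 1439 CPM (counts scaled to a common library total), and their summed level lay at 5966 to 6306 CPM in DMSO, 6047 to 6324 CPM with GDC0068 and 6302 to 6375 CPM with Degrader. The sum can hide opposite moves of single markers. PGR was called higher with Degrader (log2 fold change 0.34, edgeR adjusted p = 0.00801) and not with GDC0068 (0.21, edgeR adjusted p = 0.111). ESR1 had log2 fold changes of -0.13 with Degrader and -0.16 with GDC0068 and was not called (edgeR adjusted p = 0.230 and 0.238). With the replicate number as a block in the fit, ESR1 was called lower with both drugs (edgeR adjusted p = 0.00921 and 0.0047). That fit also called PGR higher with GDC0068 (edgeR adjusted p = 1.82e-04). Of 12 markers of basal, stromal, endothelial and immune cells, only CD68, which encodes a lysosomal protein, was found by name among the 20333 gene intervals. The other 11 had no interval of that name, so their levels are not known from these counts. CD68 stood at 83.6 and 77.2 CPM in DMSO, 62.6 and 67.6 CPM with GDC0068 and 64.4 and 55.1 CPM with Degrader. CD68 was called lower with both drugs, as MTHFD1 and MTHFD1L were among the 9 genes. Its log2 fold change was -0.43 with Degrader (edgeR adjusted p = 0.00361) and -0.30 with GDC0068 (edgeR adjusted p = 0.0487). The part of CD68 in the values of the 9 genes was not tested. ERBB2, the gene of HER2, lay between 172 and 193 CPM. The submitters' processing notes list a fruit fly assembly beside the human one without saying how it was used, so every fold change is relative to the bulk of genes.

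RefSeq promoter windows (GRCh38.p14, 250 bases before to 50 bases after the annotated start) were found for 6 of the 9 genes. The 250 bases before the start are shown for PSAT1 and MTHFD1, which were called lower with Degrader, and for SHMT1 and MTHFD2, which were not called lower with either drug. PHGDH, also called lower with Degrader, has a window without a searched motif and is not shown. Capitals mark the only searched motif in the bases shown, an E-box.
PSAT1, chr9:78296875-78297124, plus strand: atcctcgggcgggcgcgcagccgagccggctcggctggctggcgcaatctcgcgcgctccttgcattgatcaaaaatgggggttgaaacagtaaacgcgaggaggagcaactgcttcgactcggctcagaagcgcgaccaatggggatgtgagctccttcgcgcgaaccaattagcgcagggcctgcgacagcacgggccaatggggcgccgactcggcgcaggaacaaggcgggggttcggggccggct
MTHFD1, chr14:64388103-64388352, plus strand: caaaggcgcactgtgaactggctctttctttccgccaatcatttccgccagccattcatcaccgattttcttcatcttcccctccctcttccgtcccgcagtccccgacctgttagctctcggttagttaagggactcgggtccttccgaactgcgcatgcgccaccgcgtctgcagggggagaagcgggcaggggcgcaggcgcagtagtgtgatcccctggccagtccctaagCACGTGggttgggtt
SHMT1, chr17:18363551-18363800, minus strand: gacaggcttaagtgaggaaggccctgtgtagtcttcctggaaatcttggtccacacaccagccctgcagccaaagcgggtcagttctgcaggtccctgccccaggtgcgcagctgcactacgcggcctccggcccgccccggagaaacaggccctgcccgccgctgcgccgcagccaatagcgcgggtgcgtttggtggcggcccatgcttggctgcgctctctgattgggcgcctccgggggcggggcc
MTHFD2, chr2:74198365-74198614, plus strand: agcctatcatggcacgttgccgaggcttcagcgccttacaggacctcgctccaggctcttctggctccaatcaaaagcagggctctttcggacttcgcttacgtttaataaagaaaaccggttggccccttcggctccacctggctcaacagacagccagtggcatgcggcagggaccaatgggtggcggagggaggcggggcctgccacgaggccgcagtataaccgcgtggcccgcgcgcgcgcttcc
The motifs searched, on both strands and over the 300 bases, were TGATGNAA, the composite element bound by C/EBP and ATF factors, the E-box CACGTG, and GTAAACA, the forkhead core. They occur in 3.62%, 7.26% and 3.42% of all 35116 RefSeq windows of this length. Counted by gene over all windows of each, the shares are 4.46%, 8.77% and 4.19% of 27305 genes. Among the 6 genes, the E-box was found in MTHFD1, beginning 15 bases before the start, and in MTHFD1L, and the composite element in MTHFD1L alone, while GTAAACA was in no window. The first 3 of the 4 MTHFD1L windows hold both. Relative to the RefSeq start at chromosome 6, 150866447, the E-box begins 115 bases and the composite element 90 bases upstream. That start lies 775 bp from the start of the counted MTHFD1L interval, and the nearest of the 4 RefSeq starts lies 661 bp from it. Both motifs are therefore inside the counted interval, downstream of its start. They are shown with 10 bases on each side.
MTHFD1L E-box: cgcccggctcCACGTGcgcagccggc
MTHFD1L composite element: ccgccggctcTGATGCAAtcgcgccggg
A match describes letters in a window and not a bound site.

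Degrader was first set against DMSO. MTHFD1L and PSAT1 fell most, MTHFD1L to 0.574 and PSAT1 to 0.596 of the DMSO level. PHGDH, SHMT2 and MTHFD1 fell by smaller amounts, and PSPH, SHMT1, MTHFD2 and ALDH1L2 were not called. In all, edgeR called 5 of the 9 genes lower and 0 higher, at a Benjamini-Hochberg adjusted p under 0.05, where 7.88% of all genes tested were called lower and 7.39% higher (15.3% in all). With the replicate number as a block, which pairs libraries of the same number, 5 were lower and 1 was higher (15.7% and 15.1% of all genes, 30.7% in all). At an unadjusted p under 0.05 there were 6 of the 9, beside 29.9% of all genes. The libraries of the arms did not overlap in 6 genes that were lower and 1 that was higher under Degrader, beside 29.2% and 29.3% of all genes, 58.6% in all. The median log2 fold change of the 9 genes was -0.27, beside 0.00 (-0.0014) over all genes tested. The 9 genes were chosen with earlier results of these data known. The shares of all genes are therefore given for scale, and the excess over them was not tested. The count among the 9 was 3 without DMSO replicate 2 and 2 without Degrader replicate 2, where 1829 and 931 of all genes were called in place of 3039. In bulk libraries, fewer transcribing cells and less transcription per cell cannot be told apart.

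GDC0068, the catalytic inhibitor, was set against the same DMSO libraries. MTHFD1L and MTHFD1 fell, to 0.674 and 0.785 of the DMSO level. PSAT1 and SHMT2 had values of 0.724 and 0.802 of the DMSO level and were not called, but were with the replicate number as a block. edgeR called 2 of the 9 genes lower and 0 higher, where 1.88% of all genes were called lower and 1.7% higher (3.58% in all); with the block it called 4 lower and 1 higher, where the shares of all genes were 8.91% and 8.87% (17.8% in all). An unadjusted p under 0.05 was found for 5 of the 9, beside 20% of all genes. Libraries did not overlap in 5 genes lower and 1 higher, beside 24% and 26.1% of all genes, 50.1% in all. The median log2 fold change was -0.09, beside 0.01 (0.0099) over all genes. Without DMSO replicate 1 the count among the 9 was 1, and that over all genes was 37 in place of 712. Both drugs were compared with the same 2 DMSO libraries, so their values are given side by side and no likeness between them is drawn.

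**Figure D1:**
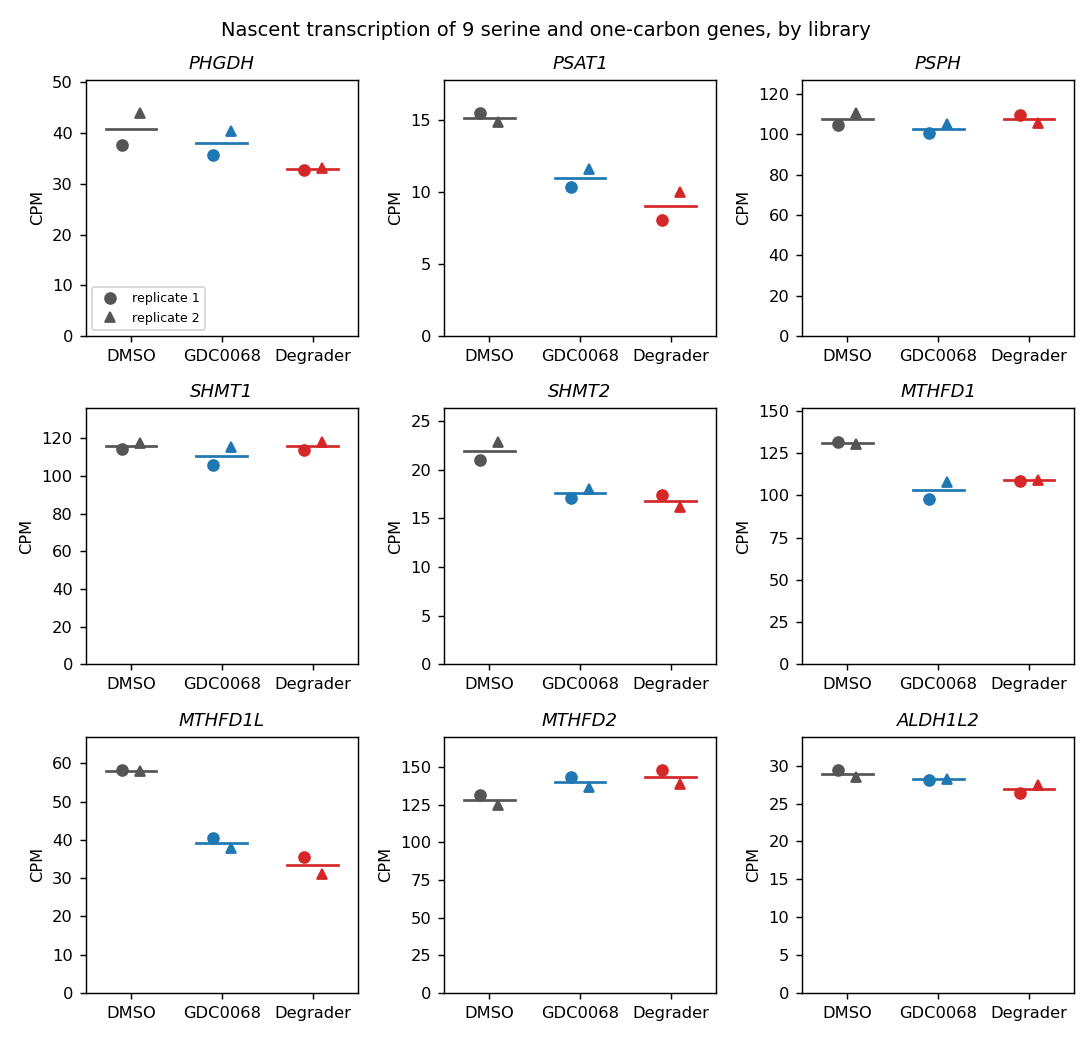
Nascent transcription in CPM (vertical axis, from 0) of each of the 9 genes in DMSO, GDC0068 and Degrader; circles are replicate 1, triangles replicate 2 and bars the mean of the 2 libraries. MTHFD1L runs from 58.1 CPM in DMSO to 33.3 CPM with Degrader with no overlap, while SHMT1 stays between 106 and 118 CPM in all 6 libraries.

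PHGDH (ENSG00000092621, chromosome 1, 119711936 to 119744226, plus strand), which commits the glycolytic intermediate to serine, stood at 37.6 and 43.9 CPM in DMSO, 35.8 and 40.3 CPM with GDC0068 and 32.7 and 33.1 CPM with Degrader. Both Degrader libraries lay below both DMSO libraries, and the GDC0068 libraries overlapped DMSO. Under Degrader its log2 fold change was -0.31 (SE 0.0853, edgeR adjusted p = 0.0329; block adjusted p = 4.14e-04). DMSO replicate 2 was the highest library, and without it the value was -0.19 (edgeR adjusted p = 0.236); the call was also lost without Degrader replicate 1 (-0.30, edgeR adjusted p = 0.123) and without Degrader replicate 2 (-0.32, edgeR adjusted p = 0.128). Under GDC0068 the log2 fold change was -0.09 (95% interval -0.28 to 0.09, edgeR adjusted p = 0.579), and 0.02 without DMSO replicate 2. Within replicate number 1 and 2, the log2 ratios of Degrader to DMSO were -0.20 and -0.41, both downward.

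PSAT1 (ENSG00000135069, chromosome 9, 78297127 to 78330093, plus strand), the aminotransferase of the pathway, stood at 15.5 and 14.9 CPM in DMSO, 10.3 and 11.6 CPM with GDC0068 and 8.08 and 9.98 CPM with Degrader. The 3 arms did not overlap, and the order was DMSO, GDC0068, Degrader. Its counts, 232 to 497 per library, were the lowest of the 9 genes, with a counting error of 4.49% to 6.57%. The log2 fold change under Degrader was -0.75 (SE 0.120, edgeR adjusted p = 0.00225), 154th from the lowest of 19902 log2 fold changes, and it stayed called with each library left out, between -0.92 and -0.60. Under GDC0068 it was -0.47 (SE 0.118, edgeR adjusted p = 0.0533) and not called. Of the 10 other settings with no library left out, 3 called it. These were the block, robust estimation and the fit to 4 libraries (edgeR adjusted p = 0.00154, 0.0394 and 0.0472). DESeq2 and limma-voom did not (adjusted p = 0.0587 and 0.0523). With 1 library left out the log2 fold change under GDC0068 ran from -0.56 to -0.39. The within-replicate log2 ratios to DMSO were -0.93 and -0.57 under Degrader and -0.58 and -0.36 under GDC0068, all 4 downward. The PSAT1 interval overlaps no other interval of the table.

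PSPH (ENSG00000146733, chromosome 7, 56011068 to 56051444, minus strand), which releases free serine, had 104.6 and 111 CPM in DMSO, 100.5 and 105 CPM with GDC0068 and 109 and 106 CPM with Degrader. The libraries of each drug overlapped those of DMSO. Its log2 fold change under Degrader was -0.00022 (95% interval -0.11 to 0.11, edgeR adjusted p = 0.998), and under GDC0068 -0.07 (95% interval -0.18 to 0.05, edgeR adjusted p = 0.516). CCT6A, a chaperonin subunit gene that starts 341 bp away on the opposite strand, was lower: it stood at 81.3 ± 1.6 CPM in DMSO, 68.8 ± 4.1 CPM with GDC0068 and 65.1 ± 0.21 CPM with Degrader (SD, n = 2), with log2 fold changes of -0.24 (edgeR adjusted p = 0.0409) and -0.32 (edgeR adjusted p = 0.00356). Of the 3 genes of serine synthesis, PHGDH and PSAT1 were thus called lower under Degrader and PSPH was not.

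SHMT1 (ENSG00000176974, chromosome 17, 18327873 to 18363495, minus strand), the cytosolic hydroxymethyltransferase, stood at 114 and 117 CPM in DMSO, 106 and 115 CPM with GDC0068 and 114 and 118 CPM with Degrader. All 3 arms overlapped. Its log2 fold change was 0.0036 under Degrader (95% interval -0.11 to 0.12, edgeR adjusted p = 0.975) and -0.06 under GDC0068 (95% interval -0.18 to 0.05, edgeR adjusted p = 0.546). SHMT2 (ENSG00000182199, chromosome 12, 57229711 to 57234935, plus strand), the mitochondrial enzyme, stood at 21.0 and 22.9 CPM in DMSO, 17.2 and 18.0 CPM with GDC0068 and 17.4 and 16.2 CPM with Degrader. Both drug arms lay below both DMSO libraries and overlapped each other. SHMT2 had a log2 fold change of -0.39 with Degrader (SE 0.0921, edgeR adjusted p = 0.0167) and -0.32 with GDC0068 (SE 0.0921, edgeR adjusted p = 0.0799; block adjusted p = 0.00981). The Degrader call was lost without DMSO replicate 2 (-0.32, edgeR adjusted p = 0.106) and without Degrader replicate 2 (-0.35, edgeR adjusted p = 0.123). The within-replicate log2 ratios of Degrader to DMSO were -0.28 and -0.50 for SHMT2 and -0.0047 and 0.01 for SHMT1; the difference between the 2 genes was not tested. The SHMT1 interval overlaps SMCR8 over 184 bp on the opposite strand and holds MIR6778 on its own, and SHMT2 overlaps NDUFA4L2 by 31 bp on the opposite strand; none of the 3 was called under either drug.

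MTHFD1L (ENSG00000120254, chromosome 6, 150865672 to 151101885, plus strand), the mitochondrial formate producer and the longest interval of the 9 genes at 236214 bp, stood at 58.3 and 57.9 CPM in DMSO, 40.6 and 37.8 CPM with GDC0068 and 35.6 and 31.1 CPM with Degrader. The arms did not overlap, and the order was the same as for PSAT1. The log2 fold change was -0.80 with Degrader (SE 0.0728, edgeR adjusted p = 1.22e-04), 119th from the lowest of 19902 log2 fold changes, and -0.57 with GDC0068 (SE 0.0721, edgeR adjusted p = 0.00398), 220th from the lowest. It was the member with the widest spread of arm means, and it was called against DMSO under both drugs with each library left out and under all 10 other settings. The within-replicate log2 ratios were -0.71 and -0.90 under Degrader and -0.52 and -0.62 under GDC0068. Its interval holds the intervals of ARL4AP5 and AL133260.1 on the same strand, each with at most 8 counts in a library.

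MTHFD2 (ENSG00000065911, chromosome 2, 74198615 to 74217565, plus strand), the mitochondrial dehydrogenase and cyclohydrolase one step before MTHFD1L, went the other way. It stood at 132 and 125 CPM in DMSO, 143 and 137 CPM with GDC0068 and 148 and 139 CPM with Degrader, with both drug arms above both DMSO libraries. The log2 fold change was 0.16 with Degrader (SE 0.0531, edgeR adjusted p = 0.0625) and 0.12 with GDC0068 (SE 0.0532, edgeR adjusted p = 0.216), so neither was called. With the replicate block both were called higher (adjusted p = 6.78e-04 and 0.0119, edgeR), and under Degrader also with robust estimation (edgeR adjusted p = 0.0477). No other of the 10 settings with no library left out called MTHFD2, and the DESeq2 adjusted p was 0.125 under Degrader and 0.433 under GDC0068. With 1 library left out the log2 fold change ran from 0.11 to 0.20 under Degrader and from 0.09 to 0.16 under GDC0068. The within-replicate log2 ratios were 0.17 and 0.15 under Degrader and 0.12 and 0.13 under GDC0068. Its interval overlaps AC006030.1 over 5962 bp on the opposite strand; that interval stood at 70.1 ± 2.2 CPM in DMSO, 83.0 ± 3.2 CPM with GDC0068 and 89.3 ± 2.3 CPM with Degrader (SD, n = 2) and was called higher under both drugs (log2 fold changes of 0.25 and 0.35; edgeR adjusted p = 0.0342 and 0.00181). Whether strand was used in the authors' counting is not given in the sources used here, and the part of that interval in the MTHFD2 values was not tested. AC073263.2, which overlaps the MTHFD2 start on the opposite strand over 511 bp, was not called.

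ALDH1L2 (ENSG00000136010, chromosome 12, 105019790 to 105084417, minus strand), the mitochondrial formyl-folate dehydrogenase, stood at 29.4 and 28.5 CPM in DMSO, 28.2 and 28.3 CPM with GDC0068 and 26.4 and 27.5 CPM with Degrader. Each drug library was below both DMSO libraries by a small step. The log2 fold change was -0.11 under Degrader (95% interval -0.27 to 0.06, edgeR adjusted p = 0.383) and -0.04 under GDC0068 (95% interval -0.20 to 0.13, edgeR adjusted p = 0.828). C12orf45 on the opposite strand overlaps 41038 of its 64628 bp and fell under both drugs, from 56.8 ± 1.3 CPM in DMSO to 45.8 ± 1.1 CPM with GDC0068 (log2 fold change -0.31, edgeR adjusted p = 0.0189) and 42.9 ± 1.7 CPM with Degrader (-0.40, edgeR adjusted p = 0.00133; SD, n = 2). The part of that interval in the ALDH1L2 values was not tested.

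MTHFD1 (ENSG00000100714, chromosome 14, 64388388 to 64460025, plus strand), the cytosolic enzyme that joins formate to folate and reduces the unit for biosynthesis, stood at 132 and 131 CPM in DMSO, 98.1 and 108 CPM with GDC0068 and 109 and 109 CPM with Degrader. Both drug arms lay below both DMSO libraries. Of the 5 genes called under Degrader it was the only one whose mean was lower with GDC0068 than with Degrader: the log2 fold change was -0.35 with GDC0068 (SE 0.0536, edgeR adjusted p = 0.00907) and -0.27 with Degrader (SE 0.0534, edgeR adjusted p = 0.00709). Without DMSO replicate 1 both calls were lost (-0.35, edgeR adjusted p = 0.0688, and -0.26, edgeR adjusted p = 0.0578), and the Degrader call also without Degrader replicate 2 (-0.28, edgeR adjusted p = 0.0533). The within-replicate log2 ratios were -0.43 and -0.28 under GDC0068 and -0.28 and -0.26 under Degrader. TEX21P, which starts 449 bp away on the opposite strand, was not called and stood at 55.7 ± 3.3 CPM in DMSO, 63.5 ± 3.8 CPM with GDC0068 and 61.4 ± 3.0 CPM with Degrader (SD, n = 2).

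**Figure D2:**
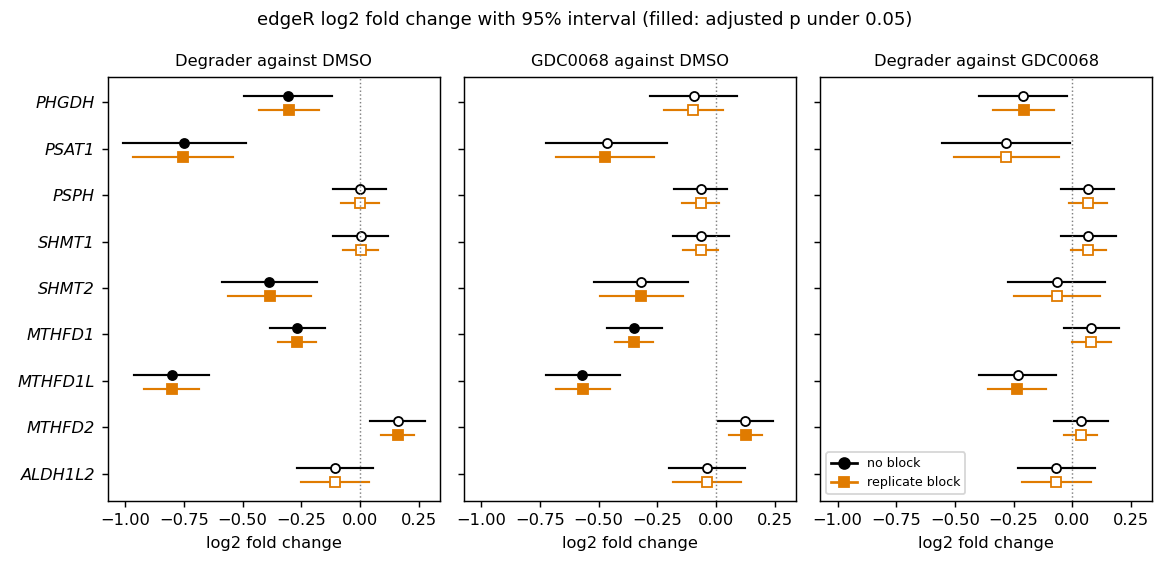
Log2 fold change of each gene (horizontal axis) in the 3 contrasts, with the 95% interval of the edgeR fit without a block (black circles) and with the replicate number as a block (orange squares); filled symbols have an adjusted p under 0.05. Against DMSO, MTHFD1L lies at -0.80 under Degrader and -0.57 under GDC0068, and PSPH and SHMT1 lie within 0.07 of 0.

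**Figure D3:**
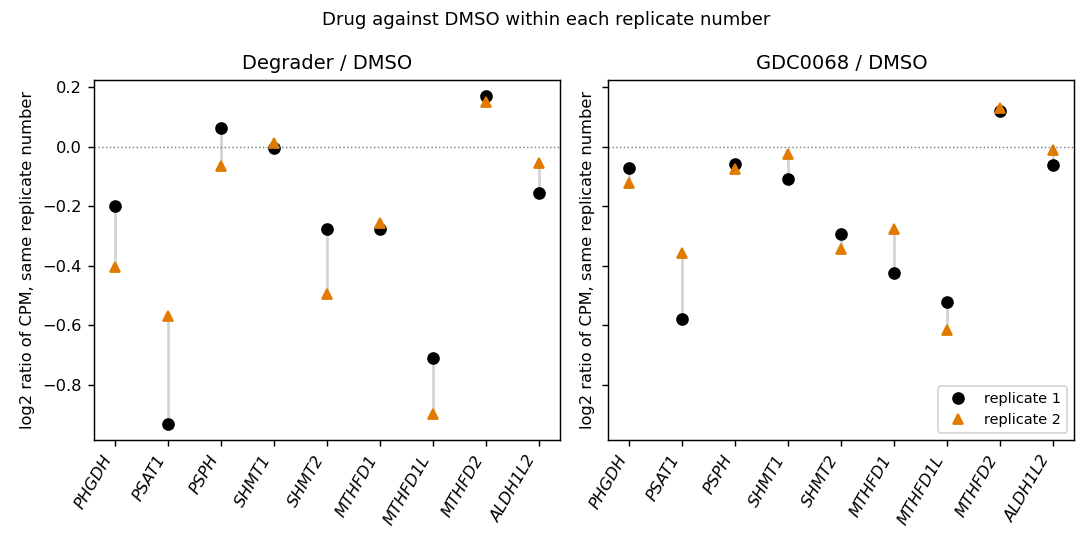
Log2 ratio of CPM (vertical axis) of each drug library to the DMSO library of the same replicate number, for the 9 genes; black circles are replicate 1 and orange triangles replicate 2. PHGDH, PSAT1, SHMT2, MTHFD1, MTHFD1L and ALDH1L2 are below 0 in both replicates under both drugs, and MTHFD2 is above 0 in both.

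Degrader at 100 nM was then set against GDC0068 at 500 nM. No call was made among the 9 genes (0 by edgeR, by DESeq2 and by limma-voom), where edgeR called 0.266% of all genes, 0.116% higher and 0.151% lower; 3 of the 9 had an unadjusted p under 0.05, beside 14.1% of all genes. With the replicate block edgeR called 2 of the 9 lower under Degrader, MTHFD1L and PHGDH, where 5.35% of all genes were called lower and 5.03% higher (10.4% in all). Libraries did not overlap in 4 genes lower and 2 higher under Degrader, beside 22.9% and 22.1% of all genes, 45% in all. MTHFD1L differed by -0.23 on the log2 scale (95% interval -0.40 to -0.07, edgeR adjusted p = 0.200; block adjusted p = 0.0114) and PHGDH by -0.21 (95% interval -0.40 to -0.02, edgeR adjusted p = 0.298; block adjusted p = 0.0340). PSAT1 differed by -0.28 (95% interval -0.55 to -0.0094, edgeR adjusted p = 0.339; block adjusted p = 0.103). For each of these 3 genes, both Degrader libraries lay below both GDC0068 libraries. The other 6 differed by between -0.07 and 0.08, with intervals that reached from -0.27 to 0.20 at the outside, so differences within those bounds could not be resolved by these libraries. For MTHFD1 the value was 0.08 (95% interval -0.04 to 0.20, edgeR adjusted p = 0.517), with both Degrader libraries above both GDC0068 libraries.

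Levels between genes were compared as CPM per kb of interval. In DMSO the order from the top was MTHFD2 at 6.77 ± 0.24, SHMT2 at 4.205 ± 0.25, SHMT1 at 3.25 ± 0.061, PSPH at 2.66 ± 0.10, MTHFD1 at 1.83 ± 0.012, PHGDH at 1.26 ± 0.14, PSAT1 at 0.460 ± 0.013, ALDH1L2 at 0.448 ± 0.010 and MTHFD1L at 0.246 ± 0.0010 (SD, n = 2). PSAT1 and ALDH1L2 did not differ beyond their spread there. Under Degrader PSAT1 was at 0.274 ± 0.041 and ALDH1L2 at 0.417 ± 0.012 CPM per kb, and SHMT2, at 3.22 ± 0.16, and SHMT1, at 3.26 ± 0.086, no longer differed beyond their spread. Under GDC0068 PSAT1 was at 0.332 ± 0.026 and ALDH1L2 at 0.437 ± 0.0011 CPM per kb. SHMT2, at 3.365 ± 0.12, and SHMT1, at 3.10 ± 0.19, did not differ beyond their spread there either. Intervals range from 5225 bp in SHMT2 to 236214 bp in MTHFD1L, and the order is that of whole intervals. The part of interval length in that order was not tested, nor that of overlapping intervals, such as C12orf45 in ALDH1L2.

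The profiles of the 9 genes over the 6 libraries were compared by the root mean square difference of log2 CPM, each gene centred on its own mean. PSPH and SHMT1, neither of them called, were the closest pair (0.0368). Next were SHMT1 with ALDH1L2 (0.0724) and PSPH with ALDH1L2 (0.0765), and after them SHMT2 with MTHFD1 (0.0833). PSAT1 and MTHFD1L were 0.169 apart, and MTHFD1L and MTHFD2, whose products act in succession, were the farthest pair (0.408). Among 13896 candidate genes whose mean reached 10 CPM, the nearest to MTHFD1L were SLFNL1-AS1 (0.0441), CTPS1, which encodes the enzyme that makes CTP (0.0469), and VEGFA, a vascular growth factor gene (0.0571). CTPS1 stood at 49.1 ± 0.88 CPM in DMSO, 34.7 ± 1.5 CPM with GDC0068 and 29.5 ± 1.2 CPM with Degrader (SD, n = 2). The nearest to PSAT1 were AC124068.2 (0.0616), the translation elongation factor gene EEF1A2 (0.0693) and the hyaluronan synthase gene HAS3 (0.0884), and the nearest to SHMT2 were PLPP4 (0.0278), the glycolytic gene PGK1 (0.0330) and the kinase gene STK39 (0.0353). The distances rest on 6 libraries and are a description; PSPH, which was not called, had its nearest gene at 0.0107.

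The genes around the pathway were taken from 4 lists, of folate and glycine enzymes, carriers of folate and serine, methionine and transsulfuration enzymes, and enzymes that use serine. These lists too were chosen with earlier results of these data known. They hold 61 genes, of which 53 were tested. Under Degrader edgeR called 8 higher and 8 lower and left 37 uncalled, beside 7.39% and 7.88% of all genes called higher and lower (with the block 11 higher and 14 lower, beside 15.1% and 15.7%). The median log2 fold change was -0.06. Under GDC0068 it called 2 higher and 2 lower, beside 1.7% and 1.88% of all genes (with the block 6 and 13, beside 8.87% and 8.91%), with a median of -0.04. Between the drugs it called 0, beside 0.266% of all genes, with 6 at an unadjusted p under 0.05, beside 14.1%, and 4 higher and 6 lower with the block, beside 5.03% and 5.35%; DESeq2 and limma-voom were not counted over these lists.

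Of 17 folate and glycine enzymes tested, 2 fell and 1 rose under Degrader and 0 were called under GDC0068, beside 15.3% and 3.58% of all genes called in either direction. Under GDC0068, 5 had an unadjusted p under 0.05, beside 20% of all genes. FPGS, which adds glutamates to folate so that cells retain it, fell from 60.4 ± 4.4 to 45.0 ± 5.3 CPM with Degrader (SD, n = 2; log2 fold change -0.43, edgeR adjusted p = 0.00982). GART, a purine synthesis enzyme that consumes formyl folate, fell by 0.21 on the log2 scale (edgeR adjusted p = 0.0283), and AMT, of the glycine cleavage system, rose by 0.38 (edgeR adjusted p = 0.0324). Under GDC0068 the log2 fold changes of FPGS, GART and AMT were -0.27, -0.19 and 0.26 (edgeR adjusted p = 0.132, 0.0933 and 0.207). With the replicate block FPGS and GART were called lower there and AMT was not called. Of 13 carriers tested, 3 rose and 2 fell under Degrader, beside 7.39% and 7.88% of all genes, and 1 rose under GDC0068, beside 1.7%. SLC38A2, a transporter of small neutral amino acids, rose from 249 and 284 CPM in DMSO to 324 and 361 CPM with GDC0068 and to 384 and 412 CPM with Degrader. The 3 arms did not overlap, and the log2 fold changes were 0.36 (edgeR adjusted p = 0.0258) and 0.58 (edgeR adjusted p = 6.93e-04). The folate carriers SLC19A1 and SLC46A1 fell with Degrader by 0.47 and 0.41 in log2 terms (edgeR adjusted p = 0.00583 and 0.00701), and SFXN3, of the mitochondrial serine carrier family, rose by 0.27 (edgeR adjusted p = 0.0446). The GDC0068 log2 fold changes of SLC19A1, SLC46A1 and SFXN3 were -0.29, -0.25 and 0.12 (edgeR adjusted p = 0.0950, 0.124 and 0.452). With the replicate block SLC19A1 and SLC46A1 were called lower there and SFXN3 was not called.

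Of 12 methionine and transsulfuration genes tested, 1 rose and 2 fell under Degrader and 1 rose and 1 fell under GDC0068, where 15.3% and 3.58% of all genes were called in either direction. CBS, which condenses serine with homocysteine, stood at 20.2 and 20.6 CPM in DMSO, 13.6 and 13.6 CPM with GDC0068 and 11 and 11.8 CPM with Degrader. No arm overlapped another, and the log2 fold changes were -0.58 (edgeR adjusted p = 0.00955) and -0.84 (edgeR adjusted p = 3.60e-04). AHCY, which breaks down S-adenosylhomocysteine, fell by 0.40 under Degrader (edgeR adjusted p = 0.00448), and MAT2B, the regulatory subunit of methionine adenosyltransferase, rose by 0.31 under Degrader and 0.32 under GDC0068 (edgeR adjusted p = 0.0176 and 0.0406). AHCY had a log2 fold change of -0.24 under GDC0068 and was not called (edgeR adjusted p = 0.0928, and 3.01e-05 with the replicate block). Of 11 genes that use serine, 3 rose and 2 fell under Degrader, with 7.39% and 7.88% of all genes doing so, and 1 fell under GDC0068, with 1.88% of all genes. PTDSS1, which makes phosphatidylserine, fell by 0.43 and 0.30 on the log2 scale under Degrader and GDC0068 (edgeR adjusted p = 0.00126 and 0.0268). The dehydratase-like gene SDSL fell by 0.38 under Degrader (edgeR adjusted p = 0.00643), while SPTLC3, a subunit of the first enzyme of sphingolipid synthesis, and SERINC3 rose by 0.44 and 0.39 (edgeR adjusted p = 0.00150 and 0.00479). Under GDC0068 the log2 fold changes of SDSL, SPTLC3 and SERINC3 were -0.23, 0.19 and 0.19 (edgeR adjusted p = 0.113, 0.135 and 0.163). Each was called there with the replicate block.

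**Figure D4:**
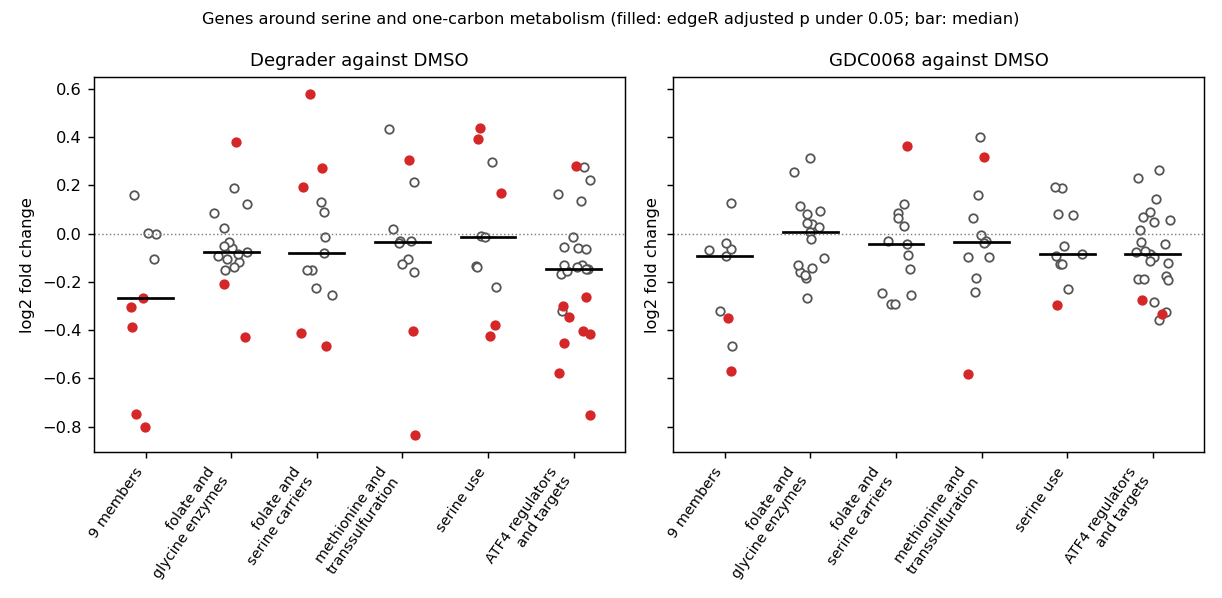
Log2 fold change against DMSO (vertical axis) of the 9 genes and of the genes of 5 lists around them, under Degrader and under GDC0068; each point is a gene, filled where edgeR's adjusted p is under 0.05, and bars are medians. The median of the 9 genes is -0.27 under Degrader, and that of the 25 ATF4 regulators and targets is -0.15.

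Several calls outside the 9 genes were lost when 1 library was left out. Under Degrader, FPGS, GART, AMT, SLC19A1, SLC46A1, SFXN3, MAT2B, SERINC3 and SDSL were not called without DMSO replicate 1 (edgeR adjusted p from 0.0601 to 0.303) or without Degrader replicate 2 (0.0571 to 0.229). GART, AMT and SFXN3 were also not called without DMSO replicate 2 (edgeR adjusted p from 0.0668 to 0.120), without Degrader replicate 1 (0.0925 to 0.160) or in DESeq2 (0.0625 to 0.0793). Under GDC0068, SLC38A2, CBS, MAT2B and PTDSS1 were not called without DMSO replicate 1 (edgeR adjusted p from 0.0688 to 0.303) or without GDC0068 replicate 2 (0.0567 to 0.145). CBS, MAT2B and PTDSS1 were not called without DMSO replicate 2 (edgeR adjusted p from 0.0507 to 0.0751). MAT2B under GDC0068 also lost its call without GDC0068 replicate 1 (edgeR adjusted p = 0.114), without Degrader replicate 1 or 2 (0.0544 and 0.0559) and in the fit to 4 libraries (0.0567).

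ATF4 itself stood at 61.0 and 65.8 CPM in DMSO, 64.7 and 68.2 CPM with GDC0068 and 55.2 and 60.4 CPM with Degrader; the gene was not called against DMSO under Degrader (log2 fold change -0.13, edgeR adjusted p = 0.194; block adjusted p = 0.0273) or GDC0068 (0.07, edgeR adjusted p = 0.594). Of 25 tested regulators and targets of ATF4 from a list without the 9 genes, 8 fell and 1 rose under Degrader, beside 7.88% and 7.39% of all genes, and 2 fell under GDC0068, beside 1.88%. With the block, 14 were lower and 5 higher under Degrader (15.7% and 15.1% of all genes) and 9 lower and 2 higher under GDC0068 (8.91% and 8.87%). The list's medians were -0.15 and -0.09. GPT2, an alanine aminotransferase, fell by 0.58 under Degrader and 0.33 under GDC0068 (edgeR adjusted p = 4.01e-04 and 0.0225), and EIF4EBP1, a translation repressor gene, by 0.35 and 0.27 (edgeR adjusted p = 0.00347 and 0.0339). PYCR1, of proline synthesis, and XPOT, a transfer RNA exporter gene, fell by 0.45 and 0.26 under Degrader (edgeR adjusted p = 0.00265 and 0.00488). The GDC0068 log2 fold changes of PYCR1 and XPOT were -0.28 and -0.19 and were not called (edgeR adjusted p = 0.0615 and 0.0566). With the block both were called (edgeR adjusted p = 6.86e-04 and 6.08e-04). Without GDC0068 replicate 1 or 2, or DMSO replicate 1 or 2, GPT2 and EIF4EBP1 were not called under GDC0068 (edgeR adjusted p from 0.0655 to 0.186), and XPOT was not called under Degrader without Degrader replicate 2 (0.0526).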

How the data were processed

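PRO-seq libraries of T47D cells, 2 per arm in 3 arms, were analysed from 1 deposited table, in which the authors give a raw count for each gene interval; that the values are unnormalised counts follows from whole numbers with differing totals. The submitters' processing notes list cutadapt 1.14, Bowtie 1.2.2, SAMtools 1.3.1, HISAT2 2.2.1 and limma, and the builds hg38, GRCh38 and dm3, without roles. The counting tool, the use of strand, the part of a gene counted and the removal of duplicates are not given in the sources used here, and each can change a count. Coordinates are the table's, with starts counted from 1.

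In R 4.3.3, edgeR 4.0.16 kept 19902 intervals (filterByExpr, minimum count 10, minimum total 15), scaled libraries by TMM and fitted all 6 libraries with a term per arm (glmQLFit, glmQLFTest, 3 residual degrees of freedom). A further 8.65 prior degrees of freedom came from the spread shared over genes, and tests and intervals used both. Genes were called at an adjusted p under 0.05 over all genes tested. Log2 fold changes and 95% intervals come from that fit, SE being the change divided by the square root of F. The test was tried first on simulated counts without deviations shared by replicate number, so that trial does not cover such deviations. Counts were the values fitted and the library was the unit of each test. Intervals cover the spread between these libraries only, and 2 libraries against 2 cannot give an exact permutation p below 0.333.

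Same-numbered libraries deviated together from their arm means. Pearson's r across genes was 0.177, 0.220 and 0.204 for the 3 pairs of arms, where genes are not independent. The series describes 2 independent experiments, though no label says which libraries belong to which. A fit with the replicate number as a block is therefore given for each serine and one-carbon gene whose call it changes. For other genes it is given in part, and silence does not mean an unchanged call. Between the drugs, for example, the block called ATF4 lower and SLC38A2 higher with Degrader (edgeR adjusted p = 0.00508 and 2.37e-04). Without the block neither was called (edgeR adjusted p = 0.197 and 0.2315). Replicates differed by more than sampling noise (chi-square per degree of freedom 5.01 to 6.95).

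The 9 genes and the lists were chosen with earlier results of these data known. A list of other regulators is not reported here. All 9 are named; from each other list, up to 4 called genes with the smallest adjusted p; and the 3 nearest profiles for the 3 members with the widest range of arm means. Alternatives were RLE, upper quartile and no scaling factors, DESeq2 1.42.0, limma-voom (limma 3.58.1), 2 other filters, robust estimation, the 4 libraries compared, the replicate block and each library left out.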

Additional observations from a re-analysis of the deposited data

How the results depend on the processing

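The counts among the 9 genes under Degrader were 5 or 6 in all 10 settings that leave out no library of the contrast, and ran from 2 to 5 genes with 1 library left out. Under GDC0068 the count was 5 with the replicate block and ran from 1 to 3 with 1 library left out; between the drugs it was 2 with the replicate block and 0 with any library left out. Over all genes tested, the replicate block gave 6114 calls in place of 3039 under Degrader, 3540 in place of 712 under GDC0068 and 2065 in place of 53 between the drugs, and the calls of the fit without it were all among them. Beyond the 6 calls gained among the 9 genes and given with them, the block changed no call of these genes. Leaving out 1 library gave 931 to 3217, 37 to 546 and 5 to 63 calls. Between the drugs DESeq2 called 141 genes, robust estimation 116 and the fit to 4 libraries 23. The cause of these shifts was not tested. Signs turned only where values were near 0. For PSPH under Degrader the log2 fold change was 0.0031 with upper quartile factors, 0.00074 with limma-voom, 2.0e-05 with no filter, 0.00043 with the replicate block and 0.00075 with 4 libraries, and -0.0427 to 0.0395 with 1 library left out. With 1 library left out, SHMT1 under Degrader ran from -0.0317 to 0.0299, PHGDH under GDC0068 from -0.2095 to 0.0198, and MTHFD2 between the drugs from -0.0053 to 0.0786. Depth limits PSAT1 most among the 9 genes, with 232 counts in its lowest library.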

Other observations

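Relatives of the 9 genes were measured at 2 further intervals. MTHFD2L, the mitochondrial relative of MTHFD2 (chromosome 4, 74158118 to 74303092), had 1288 to 1636 counts per library and log2 fold changes of -0.09 under Degrader (edgeR adjusted p = 0.387) and 0.04 under GDC0068 (edgeR adjusted p = 0.788). The pseudogene MTHFD2P7 (chromosome 3, 179464590 to 179465328) had 41 to 85 counts and log2 fold changes of -0.17 (edgeR adjusted p = 0.694) and -0.26 (edgeR adjusted p = 0.602); reads of MTHFD2 and of such a copy can be hard to assign.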
